A study of Homo sapiens with 6 samples.

Results

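The metalloproteinases and their inhibitors were taken from the expression table as the genes named MMP, TIMP, ADAM or ADAMTS followed by a number, which gave 49 of 27605 genes. They comprised 15 matrix metalloproteinases (MMP), 4 tissue inhibitors of metalloproteinases (TIMP), 14 membrane-anchored ADAM proteins and 16 secreted ADAMTS proteases. Of these, 21 reached a mean of 0.5 FPKM over the 6 libraries and are called expressed here (6 MMP, 4 TIMP, 7 ADAM and 4 ADAMTS genes). FPKM scales the sequenced fragments of a gene by transcript length and library size, so that levels of different genes can be set side by side. How the values of several transcripts were combined into a gene value is not given in the sources used here. Comparisons between genes, including the shares of a family, carry this limit. The other 28 genes were not tested in the main comparison.

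The study knocked down ARHGEF2, a microtubule-associated guanine nucleotide exchange factor for the GTPase RhoA, in HepG2, a human liver tumour cell line, and sequenced poly(A) RNA. The control group shNC (n = 3 libraries) and the knockdown group shARHGEF2 (n = 3 libraries) were grown in the same medium, and the labels say that the knockdown was delivered by lentivirus. Neither the labels nor the methods say whether the 3 shARHGEF2 libraries share 1 hairpin, or whether libraries of a group came from separate cultures, so p-values measure only the spread between these samples, which may be technical. From the spacing of low FPKM values the depth was estimated at 19960000 to 23140000 read pairs per library, and 0.5 FPKM on a transcript of 2000 nt is then 19.96 to 23.14 read pairs.

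The targeted gene followed the labels. ARHGEF2 was at 13.8 ± 0.700 FPKM in the control and 4.36 ± 0.417 FPKM in the knockdown libraries (SD, n = 3 each), and fell by 1.47 on the log2 scale (SE 0.11, limma adjusted p = 0.00244). The labelled cell type was less clear. Of 18 hepatocyte markers, 10 were in the table and only VTN (vitronectin) reached a mean of 1 FPKM, with the summed level of the list at 6.02 to 6.24 FPKM in shNC and 6.70 to 7.70 FPKM in shARHGEF2. ALB, APOB, TTR and TF are not analysed here. Of the epithelial markers, KRT8, KRT18, KRT19, CLDN4 and CLDN7 passed 1 FPKM (5 of 8), while CDH1 stayed at or under 0.0433 FPKM in every library. EPCAM and ESRP1 reached at most 0.0547 and 0.0542 FPKM. Fibroblast markers above 1 FPKM were 4 of 9 (COL1A1, COL3A1, DCN and LUM; summed level 39.9 to 52.7 FPKM in shNC and 38.7 to 45.6 FPKM in shARHGEF2), endothelial markers 0 of 6 and immune markers 1 of 6 (CD68). Of the other fibroblast markers, PDGFRB reached at most 0.673 FPKM, THY1 0.0652 FPKM, COL1A2 0.0453 FPKM and PDGFRA 0.00265 FPKM. Defining hepatocyte markers were thus near 0 or not in the table, and the cells are called HepG2 as the label has it. In such bulk RNA, fewer cells that express a gene and less RNA per cell cannot be told apart.

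MMPs, ADAMs and ADAMTS proteases are made as inactive precursors. In the active enzyme a zinc ion held by histidines activates a water molecule, which attacks the peptide bond. MMPs cleave collagens and other matrix proteins, ADAMs release the outer parts of membrane proteins such as growth factor precursors and adhesion receptors, and many ADAMTS proteases cut proteoglycans or process collagen. TIMPs bind in the active site and block it, so the balance of TIMPs and proteases is widely studied in liver fibrosis and in tumour invasion.

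The feature that unites the proteases is the zinc-binding site. It was searched in the longest complete coding sequence of each gene (GENCODE 29, build GRCh38), in the reading frame of the coding strand, as a histidine codon followed by a glutamate codon, a histidine codon as the fifth, a glycine or asparagine codon as the eighth and a histidine codon as the eleventh. The pattern was present in 40 of the 49 genes and in 65 of 19515 genes with a complete coding sequence (0.333%). The eighth codon was glycine in 36 and asparagine in 4 (ADAMTS1, ADAMTS4, ADAMTS9 and ADAMTS15). The 9 without a match were the 4 TIMPs, ADAM11, ADAM22, ADAM23, ADAM32 and ADAMTS8. The TIMPs are not proteases, and ADAM11, ADAM22, ADAM23 and ADAM32 are known as family members without protease activity. ADAMTS8 is a proteoglycan-cutting protease, and which codon of the pattern it lacked was not read. The search allowed only glycine or asparagine as the eighth codon, so this miss does not show that ADAMTS8 has no zinc site. Among the 21 expressed genes, 16 carried the pattern.

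The sites below are those of the 5 members with the lowest p-values in the comparison, of MMP2 and MMP24 as near relatives, and of ADAM15, the most abundant ADAM. Capitals mark the 3 histidine codons and the eighth codon.
MMP15: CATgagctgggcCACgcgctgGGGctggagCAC
MMP24: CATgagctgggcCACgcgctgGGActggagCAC
MMP2: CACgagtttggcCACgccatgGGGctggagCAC
MMP17: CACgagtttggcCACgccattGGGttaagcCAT
MMP28: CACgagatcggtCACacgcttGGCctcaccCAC
ADAMTS7: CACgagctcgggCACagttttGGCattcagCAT
ADAMTS15: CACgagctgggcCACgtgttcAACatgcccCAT
ADAM15: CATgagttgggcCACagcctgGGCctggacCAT

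All 8 sites lie in coding exons. The MMP15 site is at chr16:58040563-58040595 on the plus strand in exon 5 of 10, that of MMP24 at chr20:35263817-35263849 on the plus strand in exon 5 of 9, and that of MMP2 at chr16:55491827-55491859 on the plus strand in exon 8 of 13. The MMP17 site is at chr12:131841659-131841691 on the plus strand in exon 5 of 10 and the MMP28 site at chr17:35770167-35770199 on the minus strand in exon 5 of 8. ADAM15 has its site at chr1:155056995-155057027 on the plus strand in exon 11 of 23. The ADAMTS sites are interrupted by an intron. That of ADAMTS7 runs from exon 7 into exon 8 of 24 (chr15:78788359-78789705, minus strand) and that of ADAMTS15 from exon 2 into exon 3 of 8 (chr11:130461612-130462109, plus strand). Over the 33 bases, MMP15 was identical to MMP24 at 32 positions, to MMP2 at 28 and to MMP28 at 22, and ADAMTS7 was identical to ADAMTS15 at 22. MMP15 and MMP24, the nearest pair among the 8 in this site, had log2 fold changes of 0.36 and -0.12 between the groups, and whether these differ from each other was not tested.

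The levels spanned 3 orders of magnitude, and the MMP, TIMP and ADAM families were each carried by 1 gene. TIMP1 made up 79.0 ± 6.11% of the summed TIMP FPKM in shNC and 79.7 ± 6.19% in shARHGEF2 (SD, n = 3). MMP15 made up 76.7 ± 1.26% and 76.7 ± 2.65% of the summed MMP FPKM, and ADAM15 made up 76.2 ± 4.84% and 76.5 ± 2.67% of the summed ADAM FPKM. No such gene stood out among the ADAMTS proteases, where ADAMTS15, ADAMTS7 and ADAMTS10 lay between 2.48 and 5.08 FPKM in every library.

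**Figure D1:**
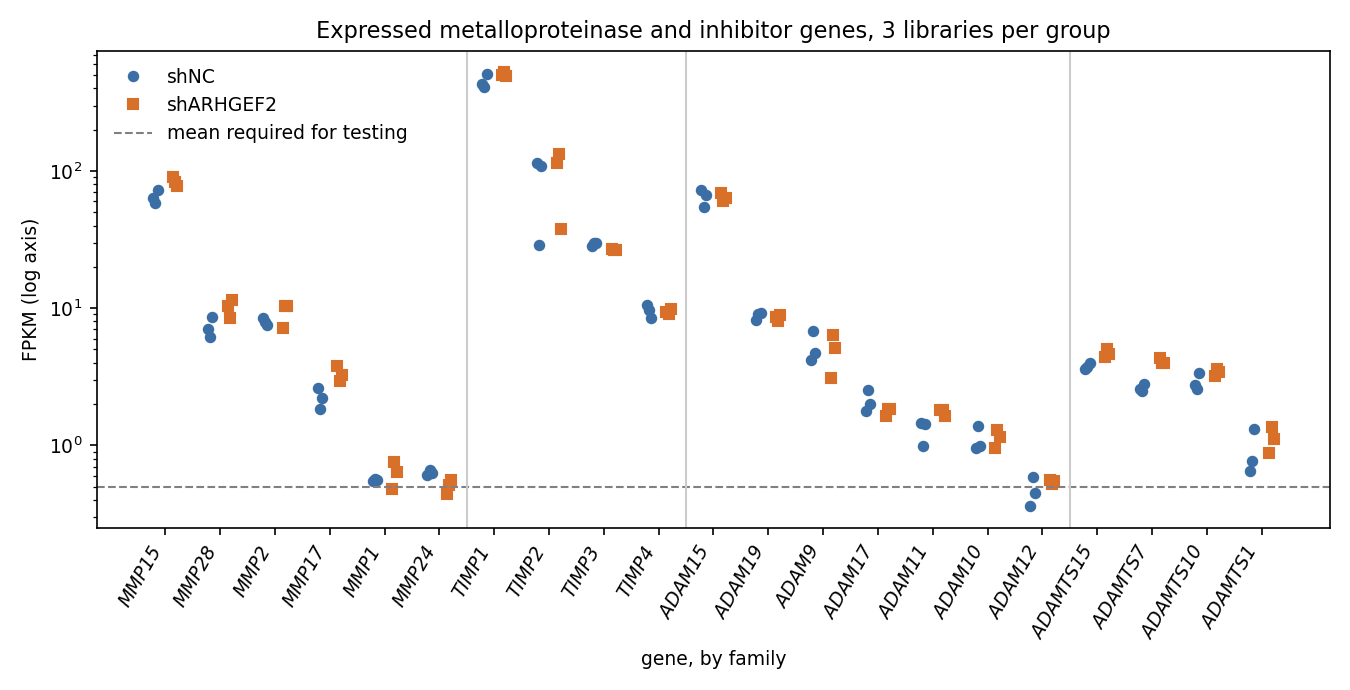
Level of each of the 21 expressed genes in FPKM (vertical log axis) by family (horizontal axis), with circles for the 3 shNC libraries and squares for the 3 shARHGEF2 libraries. TIMP1 lies between 409.7 and 523 FPKM, MMP15 and ADAM15 between 54.9 and 89.7 FPKM, and the dashed line at 0.5 FPKM marks the mean required for testing.

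Knockdown against control was tested for all 12291 genes whose 6-library mean reached 0.5 FPKM, on log2(FPKM + 1), and a gene was called at a limma adjusted p under 0.05. Of the 21 expressed members, 0 were called, beside 34 of all genes tested (0.277%, with 0.195% higher and 0.0814% lower). At an unadjusted p under 0.05, 5 members were higher in shARHGEF2 (ADAMTS7, MMP15, MMP17, MMP28 and ADAMTS15; 8.1% of all genes were higher by this rule) and 0 were lower (5.55% of all genes). Counting signs alone, 14 members had a higher and 7 a lower mean log2 value in shARHGEF2, with a median log2 fold change of 0.16, where 49.6% of all genes lay above 0 and their median was -0.00. The 3 libraries of shARHGEF2 lay entirely above those of shNC in 5 members (11.3% of all genes) and entirely below in 2 (9.17%). With 3 libraries against 3, the exact two-sided permutation test cannot go below p = 0.1, the value that each of these 7 members reached.

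ADAMTS7 is a secreted protease that cleaves cartilage oligomeric matrix protein. Its levels were 2.58, 2.48 and 2.81 FPKM in shNC and 4.35, 3.996 and 4.01 FPKM in shARHGEF2. All 3 knockdown libraries lay above all 3 control libraries, and this was the lowest p of any member. The log2 fold change was 0.50 (SE 0.11, 95% interval 0.25 to 0.75), with an unadjusted p of 0.00162, rank 162 of all genes tested, and a limma adjusted p of 0.123. The other cartilage oligomeric matrix protein-cleaving protease, ADAMTS12, was listed at 0 in 5 of 6 libraries. ADAMTS7 overlaps MORF4L1 on the opposite strand, which stood at 18.4 to 27.0 FPKM with overlapping groups.

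ADAMTS15 belongs to the proteases that cut hyaluronan-binding proteoglycans such as versican. It had 3.58, 3.76 and 3.95 FPKM in shNC and 4.40, 5.08 and 4.65 FPKM in shARHGEF2. The groups did not overlap. Its log2 fold change was 0.26 (SE 0.11, limma adjusted p = 0.356), and its unadjusted p of 0.0446 exceeded 0.05 when any of 5 of the 6 libraries was left out, all but shARHGEF2 replicate 1. ADAMTS1, of the same proteoglycan-cutting group, had means of 0.906 ± 0.353 and 1.12 ± 0.245 FPKM in shNC and shARHGEF2 (SD, n = 3), with overlapping groups and a log2 fold change of 0.16 (SE 0.16, limma adjusted p = 0.715). This value ran from 0.063 without shNC replicate 1 to 0.31 without shNC replicate 3. ADAMTS10, which acts on fibrillin microfibrils, had 2.90 ± 0.436 and 3.42 ± 0.192 FPKM, also overlapping, and a log2 fold change of 0.18 (SE 0.12, limma adjusted p = 0.570).

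MMP15 is a membrane-type MMP, held in the plasma membrane by a transmembrane segment. Its levels were 63.5, 58.5 and 73.1 FPKM in shNC and 89.7, 82.6 and 78.4 FPKM in shARHGEF2. Every knockdown library exceeded every control library. The log2 fold change was 0.36 (SE 0.11, 95% interval 0.12 to 0.60), with an unadjusted p of 0.00805 and a limma adjusted p of 0.196. MMP17 is a membrane-type MMP with a glycolipid anchor. It had 2.61, 1.83 and 2.21 FPKM in shNC and 3.80, 2.92 and 3.27 FPKM in shARHGEF2. The groups did not overlap here either, and the log2 fold change was 0.43 (SE 0.14, limma adjusted p = 0.232).

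MMP24, the third membrane-type MMP that was expressed, pointed the other way. It had means of 0.636 ± 0.0291 and 0.504 ± 0.0598 FPKM in shNC and shARHGEF2 (SD, n = 3). All 3 knockdown libraries were lower, with a log2 fold change of -0.12 (SE 0.10, limma adjusted p = 0.646), or -0.29 with a pseudocount of 0.1 in place of 1. MMP24 lies inside MMP24OS, a gene of the opposite strand with 8.44 to 10.6 FPKM in shNC and 6.45 to 7.77 FPKM in shARHGEF2. The libraries keep strand information, but whether the counting used it is not given in the sources used here, so reads of MMP24 and MMP24OS may not have been told apart. MMP14, the membrane-type MMP known for activating the precursor of MMP2 together with TIMP2, was not expressed by the rule, at 0.0929 to 0.255 FPKM.

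MMP28, also called epilysin, is a secreted MMP of epithelial tissues. Its levels were 7.10, 6.14 and 8.56 FPKM in shNC and 10.4, 8.44 and 11.4 FPKM in shARHGEF2. The groups overlapped, as shNC replicate 3 lay just above shARHGEF2 replicate 2. The log2 fold change was 0.42 (SE 0.15, 95% interval 0.09 to 0.76), with an unadjusted p of 0.0197 and a limma adjusted p of 0.264. The unadjusted p was 0.0715 without shNC replicate 2 and 0.0806 without shARHGEF2 replicate 3. MMP28 lies inside TAF15 on the opposite strand, which had 22.3, 29.9 and 18.3 FPKM in shNC and 12.0, 15.4 and 13.1 FPKM in shARHGEF2. The part of TAF15 reads in the MMP28 values was not tested.

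The remaining expressed MMPs were MMP2 and MMP1. MMP2, or gelatinase A, which degrades denatured collagen and basement membrane collagen, averaged 7.99 ± 0.417 FPKM under shNC and 9.29 ± 1.85 FPKM under shARHGEF2 (SD, n = 3). The groups overlapped because shARHGEF2 replicate 1, at 7.15 FPKM, was the lowest of the 6 libraries while the other two knockdown libraries were the highest, and the log2 fold change was 0.18 (SE 0.15, limma adjusted p = 0.648). It was 0.34 without shARHGEF2 replicate 1, and 0.097 and 0.099 without shARHGEF2 replicates 2 and 3. MMP1, the interstitial collagenase, had 0.560 ± 0.00965 and 0.623 ± 0.136 FPKM, with overlapping groups and a log2 fold change of 0.05 (SE 0.11, limma adjusted p = 0.880). The other gelatinase, MMP9, was not expressed by the rule, at 0 to 0.0917 FPKM in shNC and 0.148 to 0.246 FPKM in shARHGEF2.

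**Figure D2:**
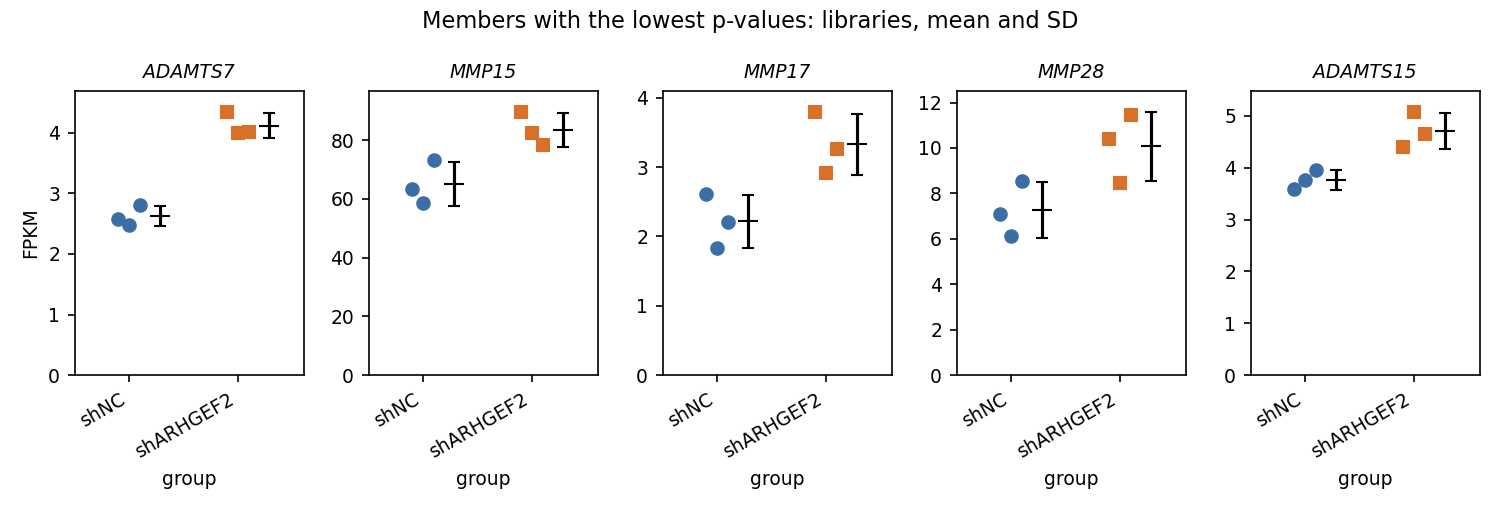
FPKM (vertical axis, from 0) of the 5 members with an unadjusted p under 0.05, with 1 point per library in shNC and shARHGEF2 (horizontal axis) and black marks for the mean and SD of 3 libraries. The groups are separate for ADAMTS7, MMP15, MMP17 and ADAMTS15 and overlap for MMP28, where the lowest knockdown library (8.44 FPKM) lies under the highest control library (8.56 FPKM).

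TIMP1, an inhibitor of most secreted MMPs, was the most abundant member. It had 428, 409.7 and 506 FPKM in shNC and 502, 523 and 489 FPKM in shARHGEF2. The groups overlapped through shNC replicate 3, the second highest of the 6 libraries. TIMP1 had a log2 fold change of 0.18 (SE 0.10, 95% interval -0.04 to 0.40, limma adjusted p = 0.466).

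TIMP3, which binds to the extracellular matrix and inhibits ADAM17 as well as MMPs, had 28.2, 30.1 and 29.9 FPKM in shNC and 27.0, 26.7 and 26.6 FPKM in shARHGEF2. The knockdown libraries were all lower and lay close together. The difference was small, with a log2 fold change of -0.13 (SE 0.08, 95% interval -0.32 to 0.06, limma adjusted p = 0.553). TIMP4 had 10.5, 9.68 and 8.44 FPKM in shNC and 9.35, 9.02 and 9.93 FPKM in shARHGEF2, with a mean of 9.55 ± 1.05 against 9.43 ± 0.462 FPKM (SD, n = 3). All the knockdown values of TIMP4 fell inside the control range, and the log2 fold change was -0.01 (SE 0.11, 95% interval -0.27 to 0.24, limma adjusted p = 0.983). TIMP1, TIMP3 and TIMP4 each lie inside a synapsin gene of the opposite strand (SYN1, SYN3 and SYN2), and these were at most 0.133 FPKM in every library.

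TIMP2, which inhibits MMPs and also takes part in activating MMP2, could not be compared between the groups at useful precision. It had 114, 28.9 and 108 FPKM in shNC and 114, 134 and 37.6 FPKM in shARHGEF2. In each group 1 library was far below the other two: shNC replicate 2 was 3.96-fold below the highest control library and shARHGEF2 replicate 3 was 3.57-fold below the highest knockdown library. The within-group SD of TIMP2 on log2(FPKM + 1) was 1.05, which was rank 14 among the 3622 genes averaging 10 FPKM or more, whose median was 0.133. TIMP2 accordingly had a log2 fold change of 0.23 with an SE of 0.77 and a 95% interval of -1.78 to 2.23 (limma adjusted p = 0.941), so a 2-fold difference in either direction lies inside the interval. Without the low library of each group it was 0.15 (SE 0.12, limma adjusted p = 0.806). In TIMP1, TIMP3 and TIMP4 the highest library of a group was at most 1.25 times the lowest. A highest library of at least 3 times the lowest in both groups was found in 14 of the 3622 genes, and in 2 of those 14, TIMP2 and MAFF, the low libraries were the same pair. TIMP2 has 4 listed transcripts, and whether reads were shared differently among them in these libraries was not tested.

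**Figure D3:**
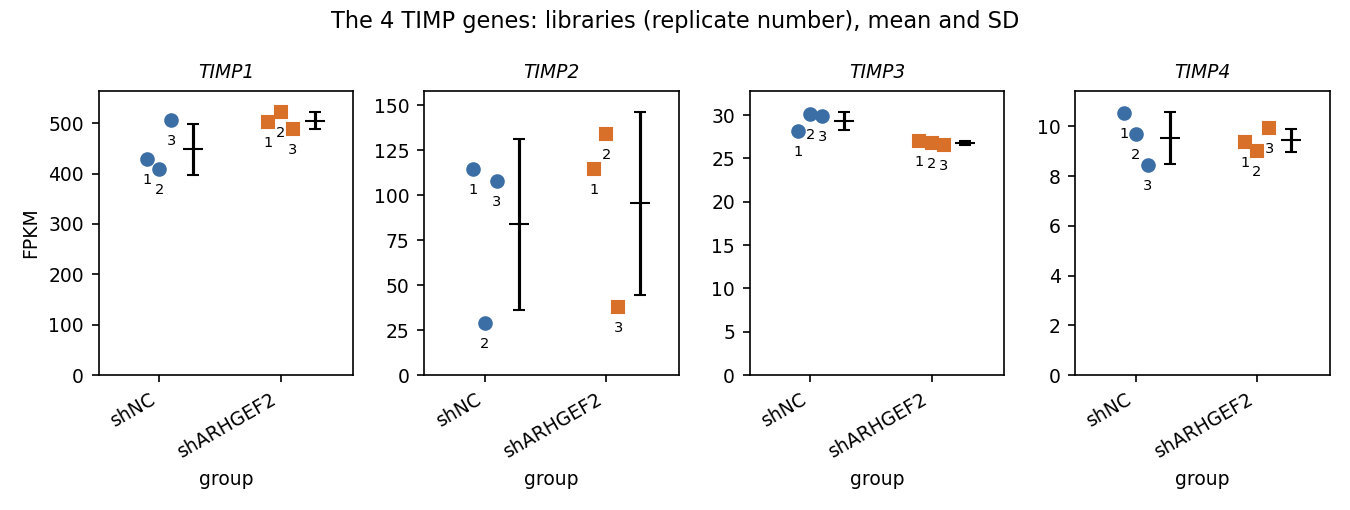
FPKM (vertical axes, from 0) of the 4 TIMP genes in the shNC and shARHGEF2 libraries (horizontal axes), with the replicate number under each point and black marks for the mean and SD of 3 libraries. TIMP2 stands apart by a single low library in each group (28.9 and 37.6 FPKM), while the points of TIMP3 and TIMP4 stay close together.

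Of the ADAMs, ADAM15, which has an integrin-binding disintegrin domain, was the most abundant, with 73.0, 54.9 and 67.2 FPKM in shNC and 68.9, 60.9 and 63.6 FPKM in shARHGEF2. All knockdown values lay inside the control range, and the log2 fold change was -0.00 (SE 0.12, 95% interval -0.27 to 0.26, limma adjusted p = 0.996). ADAM17 and ADAM10, the principal sheddases of growth factor precursors and of Notch receptors, were expressed at low levels. ADAM17 averaged 2.11 ± 0.392 FPKM under shNC and 1.78 ± 0.123 FPKM under shARHGEF2 (SD, n = 3; log2 fold change -0.15, SE 0.13, limma adjusted p = 0.659). ADAM10 had 1.11 ± 0.233 and 1.13 ± 0.176 FPKM (log2 fold change 0.02, SE 0.13, limma adjusted p = 0.974). The groups overlapped for both.

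The other expressed ADAMs were ADAM9, ADAM19, ADAM12 and ADAM11. ADAM9 was at 5.21 ± 1.38 and 4.88 ± 1.67 FPKM (SD, n = 3) with a log2 fold change of -0.10 (SE 0.24, limma adjusted p = 0.905), and ADAM19 at 8.83 ± 0.596 and 8.50 ± 0.477 FPKM with -0.05 (SE 0.10, limma adjusted p = 0.890). ADAM12 had a log2 fold change of 0.08 (SE 0.11, limma adjusted p = 0.810). In these 3 proteases the groups overlapped. ADAM11, which lacks the zinc-site pattern, was the only one of the 7 expressed ADAMs without overlap, where 11.3% of all genes tested were higher without overlap. It had 1.45, 0.989 and 1.43 FPKM in shNC and 1.80, 1.80 and 1.65 FPKM in shARHGEF2 (log2 fold change 0.27, SE 0.12, limma adjusted p = 0.392).

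**Figure D4:**
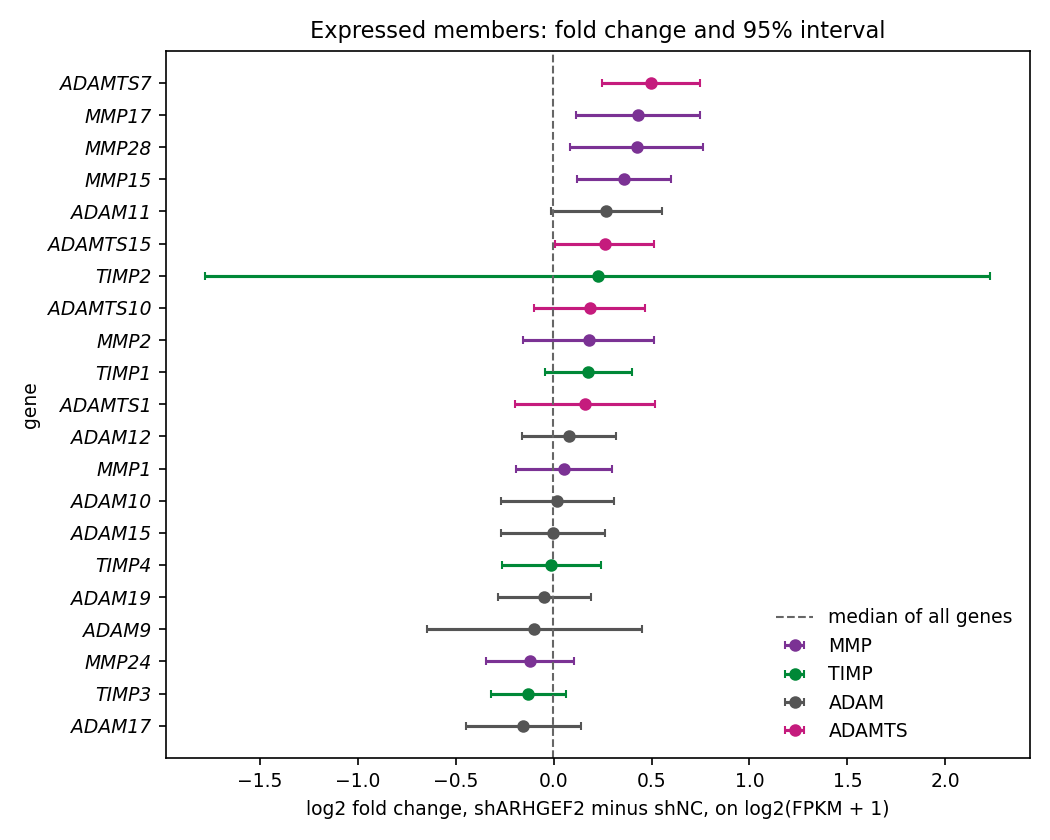
Log2 fold change (horizontal axis, shARHGEF2 minus shNC on log2(FPKM + 1)) of the 21 expressed genes (vertical axis, ordered by value), with bars for the 95% interval of each limma estimate and colours for the family. The intervals of ADAMTS7, MMP17, MMP28, MMP15 and ADAMTS15 lie above 0, that of TIMP2 runs from -1.78 to 2.23, and the dashed line marks the median of all genes tested (-0.00).

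Summed over each family, MMP transcripts were at 83.8, 76.7 and 93.6 FPKM in shNC and 113.5, 107 and 106.2 FPKM in shARHGEF2. The groups did not overlap, with means of 84.7 ± 8.47 and 108.9 ± 4.04 FPKM (SD, n = 3), and without MMP15 the sum was 19.7 ± 1.23 and 25.4 ± 2.17 FPKM. The ADAMTS sum was also separate, at 11.4 ± 1.102 and 15.0 ± 0.760 FPKM. The ADAM sum was 85.0 ± 6.84 FPKM in shNC and 84.2 ± 2.36 FPKM in shARHGEF2 and overlapped. The TIMP sum was 571 ± 87.5 and 636 ± 66.4 FPKM, with a spread that came largely from TIMP2, and 487 ± 50.4 and 541 ± 16.7 FPKM with TIMP2 left out. The ratio of summed TIMP to summed MMP FPKM was 6.71 ± 0.415 in shNC and 5.84 ± 0.592 in shARHGEF2, and the groups overlapped. In each group the lowest ratio was in the library with low TIMP2, and the overlap came through shNC replicate 2, which is such a library. The overlap therefore rests on TIMP2, and the ratio without TIMP2 is not given here. These sums are descriptions and were not tested.

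The GC content of the transcripts moved with these differences. Across 12231 genes, the deviation of a library from the mean of all 6 had a Spearman correlation with GC content of 0.199, -0.465 and 0.144 in shNC replicates 1, 2 and 3 and of 0.570, -0.289 and -0.0269 in shARHGEF2 replicates 1, 2 and 3. The 5 members with an unadjusted p under 0.05 had a GC content of 57.8 to 66.4%, where the expressed members had a median of 56.3% and all genes tested a median of 51.6%. Over the 21 expressed members, the log2 fold change had a Spearman correlation of 0.629 with GC content, against 0.140 over all genes. Genes of 1 library share its depth and base composition, so these correlations are descriptions.

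With the GC trend of each library removed, in an alternative chosen after the data were seen, ADAMTS7 had a log2 fold change of 0.43 (limma adjusted p = 0.0723) and MMP15 of 0.31 (limma adjusted p = 0.128). MMP17 then had 0.36, MMP28 0.39 and ADAMTS15 0.21, the last with an unadjusted p of 0.0615. ADAM11, with an unadjusted p of 0.0449, took its place, and 0 members were called. The correlation over the 21 members was still 0.494.

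**Figure D5:**
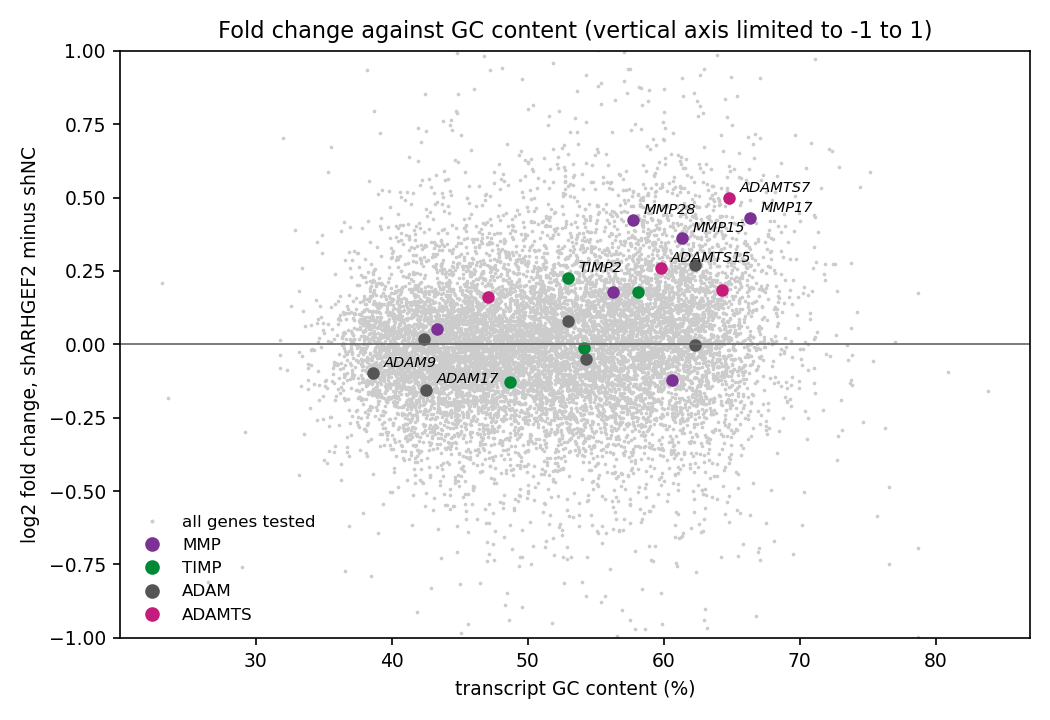
Log2 fold change (vertical axis, shARHGEF2 minus shNC) against the mean GC content of the listed transcripts in percent (horizontal axis), with grey points for all genes tested and coloured points for the 21 expressed members by family. The 5 labelled members with the lowest p-values sit between 57.8 and 66.4% GC, and 58 genes outside -1 to 1 are not shown.

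The 28 members under the threshold reached at most 0.466 FPKM among the MMPs, 0.498 FPKM among the ADAMs and 0.614 FPKM among the ADAMTS proteases in any library. The members just inside it were ADAM12 (mean of the 6 libraries 0.505 FPKM) and MMP24 (0.570 FPKM), and those just outside were ADAMTS5 (0.496 FPKM) and ADAM22 (0.396 FPKM). ADAMTS5, an aggrecan-cutting protease, and ADAMTS4, its close relative in function, were the only ones of the 28 to reach 0.5 FPKM in any library. ADAMTS4 had 0.231, 0.221 and 0.178 FPKM in shNC and 0.385, 0.589 and 0.499 FPKM in shARHGEF2, all 3 knockdown libraries being higher. Without overlap between the groups, 7 of the 28 were higher in shARHGEF2 (ADAMTS4, ADAMTS14, ADAMTS8, ADAMTS9, MMP11, MMP13 and MMP9, named after their values were seen) and 0 were lower, where 3.84% of the 15314 genes under the threshold were higher and 3.71% lower by this rule. That share covers every gene above 0 in at least 1 library and is not matched to the members in level. MMP11 (stromelysin 3) had 0.202, 0.191 and 0.212 FPKM in shNC and 0.466, 0.295 and 0.364 FPKM in shARHGEF2, while ADAMTS14, a procollagen N-proteinase, had 0.168 to 0.174 and 0.248 to 0.265 FPKM. MMP13 (collagenase 3) had 0.0250 to 0.0907 and 0.0952 to 0.318 FPKM. ADAMTS8 and ADAMTS9 never exceeded 0.0314 FPKM. None of these was tested in the main comparison, and at such levels a library holds few read pairs of the gene. In the remaining members (MMP7, MMP10, MMP14, MMP19, MMP21, MMP25, ADAM8, ADAM20, ADAM21, ADAM22, ADAM23, ADAM32, ADAM33, ADAMTS3, ADAMTS5, ADAMTS6, ADAMTS12, ADAMTS13, ADAMTS16, ADAMTS17 and ADAMTS18) the groups overlapped. Of the 49 members, 39 had a value above 0 in all 6 libraries.

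Genes that work with the metalloproteinases were read from 5 lists. Activators and partners include BSG, a membrane protein known as an inducer of MMPs (228 ± 36.9 and 256 ± 13.3 FPKM in shNC and shARHGEF2, SD, n = 3), FURIN, the convertase that cuts the propeptide of ADAMs and membrane-type MMPs (85.9 ± 13.6 and 95.9 ± 4.75 FPKM), and TSPAN17, a partner of ADAM10 (12.8 ± 4.28 and 13.1 ± 4.53 FPKM). The groups overlapped for all 3. Of the 12 tested, 0 were called (0.277% of all genes), 2 had an unadjusted p under 0.05 and were higher (8.1% of all genes), 0 were lower (5.55%), and the median log2 fold change was 0.09, beside -0.00 over all genes. The 2, named after their values were seen, were FRMD8 (log2 fold change 0.36, limma adjusted p = 0.264) and TSPAN33 (0.27, limma adjusted p = 0.336), both higher without overlap. TSPAN15 (-0.21, limma adjusted p = 0.395) and PCSK6 (-0.14, limma adjusted p = 0.621) were lower without overlap. By that rule 11.3% of all genes were higher and 9.17% lower. Of 7 inhibitors outside the TIMPs, A2M, SPOCK2, SPOCK3 and TFPI2 stayed under the mean required for testing. The 3 tested were PI3 (26.0 ± 1.13 and 22.2 ± 1.11 FPKM, lower without overlap), the proteoglycan SPOCK1 (11.6 ± 2.02 and 11.1 ± 0.805 FPKM) and RECK, a membrane-anchored MMP inhibitor (1.14 ± 0.293 and 1.096 ± 0.140 FPKM). PI3 inhibits elastase, a serine protease, and is not a metalloproteinase inhibitor. Of these 3, 0 were called and 1, PI3, was lower at an unadjusted p under 0.05, beside 5.55% of all genes (log2 fold change -0.22, SE 0.09, limma adjusted p = 0.341).

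Relatives without the gene names of the rule were led by BMP1, the procollagen C-proteinase (19.8 ± 1.06 and 22.9 ± 1.22 FPKM), ADAMTSL4 (18.1 ± 2.03 and 25.4 ± 1.17 FPKM) and THSD4 (4.25 ± 0.836 and 5.04 ± 0.378 FPKM). The last 2 are ADAMTS-like matrix proteins without a protease domain. Of 7 tested, 0 were called and 1, ADAMTSL4, was higher at an unadjusted p under 0.05, beside 8.1% of all genes (log2 fold change 0.47, limma adjusted p = 0.126). The median log2 fold change was 0.11. Matrix proteins that MMPs and ADAMTS proteases cleave were led by fibronectin FN1 (42.4 ± 4.29 and 47.8 ± 2.86 FPKM), the basement membrane collagen COL4A2 (38.6 ± 4.26 and 43.1 ± 1.71 FPKM) and perlecan HSPG2 (25.0 ± 4.67 and 30.0 ± 1.40 FPKM). The groups overlapped for FN1, COL4A2 and HSPG2. Of 9 tested, 0 were called, and at an unadjusted p under 0.05 2 were higher (8.1% of all genes) and 0 lower (5.55%), with a median log2 fold change of 0.17. The 2, named after their values were seen, were COL4A1 (log2 fold change 0.40, limma adjusted p = 0.152) and COL1A1 (0.39, limma adjusted p = 0.188). Both were higher without overlap, and COL1A1 is also among the fibroblast markers above.

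Membrane proteins released by ADAM10 or ADAM17 were the largest list. Its most abundant genes did not separate the groups: L1CAM had 164 ± 8.97 and 165 ± 3.70 FPKM, SDC4 129 ± 11.5 and 133 ± 7.87 FPKM and APP 83.1 ± 13.3 and 82.9 ± 7.78 FPKM. Of 21 tested, 0 were called (0.277% of all genes), and at an unadjusted p under 0.05 7 were higher (8.1% of all genes) and 0 lower (5.55%), with a median log2 fold change of 0.13, beside -0.00 over all genes. The 7 were MICB, MICA, F11R, EREG, TGFA, AREG and HBEGF, named after their values were seen. EREG, TGFA, AREG and HBEGF are precursors of ligands of the epidermal growth factor receptor, and MICA and MICB are ligands of the lymphocyte receptor NKG2D. MICB had 43.2, 41.4 and 49.0 FPKM in shNC and 61.8, 67.7 and 64.5 FPKM in shARHGEF2, without overlap (log2 fold change 0.53, SE 0.09, limma adjusted p = 0.0742). HBEGF had 1.33, 1.77 and 1.52 FPKM in shNC and 2.75, 4.03 and 2.57 FPKM in shARHGEF2, also without overlap (log2 fold change 0.68, SE 0.16, limma adjusted p = 0.126). The lists were read from the same libraries as the members.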

How the data were processed

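RNA of 3 shNC and 3 shARHGEF2 libraries of HepG2 cells was sequenced as paired-end reads with molecular identifiers. The authors deposited gene-level FPKM values. The submitters' processing notes name cutadapt 1.9, HISAT2 2.0.4, UMI-tools, StringTie 1.3.4d, DESeq2, edgeR and hg19, without their order. The authors also deposited a ratio (fold change), its log2 and p-value and q-value columns of their own comparison, which were not used. FPKM values with more than 6 decimals made up 99.6% of those above 1 FPKM in genes with several listed transcripts and 7.35% in genes with 1, so gene values appear to combine transcripts. Whole reads could not be recovered, as 36.1 to 37.7% of low values were near whole multiples where 20% are by chance. The depth estimate is therefore rough and entered no test.

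Groups came from the sample titles. The 12291 genes averaging 0.5 FPKM or more were tested with limma 3.58.1 in R 4.3.3 (statmod 1.5.0) on log2(FPKM + 1), with trended and robust variances and Benjamini-Hochberg adjustment over all of them, at 0.05. Fold changes are on that scale and understate changes of low genes. Other values were computed with Python 3.11.15, pandas 2.3.3, numpy 2.4.6 and SciPy 1.17.1, and figures with matplotlib 3.10.9. Of the listed transcripts, 94.7% were in GENCODE 29 (GRCh38), as were all 49 members. It gave positions, GC content and coding sequences, while the table holds no coordinates.

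Every expressed member was named. Those with an unadjusted p under 0.05 or a mean of 10 FPKM or more were given by library, and the top 3 genes by mean of each list were named; other genes given by library were picked after their values were seen. The members and lists were chosen with earlier results of these data known. Alternatives changed the pseudocount, filter, scaling, variance model and block and left out each library. The GC correction, the count at an unadjusted p under 0.05 and the removal of both low TIMP2 libraries were added with the data in view. Deviations of same-numbered libraries correlated at 0.184, 0.159 and -0.105 over genes for replicates 1, 2 and 3. Those of shNC and shARHGEF2 libraries with unlike numbers correlated at -0.221 to 0.0683. Replicates 1 and 2 thus gave the highest values and replicate 3 did not, which does not settle pairing. The main fit did not take the numbers as pairs. Of the symbols in the lists for these families, 16 were not analysed here.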

Additional observations from a re-analysis of the deposited data

How the results depend on the processing

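The count of called members was 0 in every fit, which says little about stability at a call rate of 0.277% and 21 genes. No member was called at a limma adjusted p under 0.05 under any of the 14 alternatives run, in which the lowest adjusted p of a member was 0.0723 (ADAMTS7, GC trend removed). Across the leave-one-out fits ADAMTS7 ranged from 0.47 to 0.54 and MMP15 from 0.29 to 0.45 in log2 fold change. Of the 21 expressed members, 15 kept their sign under every alternative that tested them and 6 did not. All 6 changed sign only when 1 library was left out, over ranges of -0.037 to 0.11 (ADAM10), -0.12 to 0.083 (ADAM15), -0.29 to 0.14 (ADAM9), -0.0029 to 0.12 (MMP1), -0.41 to 0.79 (TIMP2) and -0.089 to 0.054 (TIMP4). Other log2 fold changes also moved by over 1.5 times. With a pseudocount of 0.1 those of low genes were larger, at 0.31 (ADAMTS1), -0.29 (MMP24), 0.21 (ADAM12), 0.11 (MMP1) and 0.43 (ADAM11). With 1 library left out the ranges were 0.097 to 0.34 (MMP2), 0.063 to 0.31 (ADAMTS1), 0.027 to 0.088 (ADAM12), 0.17 to 0.32 (ADAM11), 0.12 to 0.27 (TIMP1), 0.12 to 0.27 (ADAMTS10), -0.23 to -0.057 (ADAM17) and -0.099 to -0.0097 (ADAM19). The members higher at an unadjusted p under 0.05 numbered 5, and 3 to 6 with 1 library left out: 3 without shNC replicate 2 or without shARHGEF2 replicate 3. The fit without both of these libraries is not among the 14. In it the unadjusted limma p was 0.0929 for MMP17, 0.210 for MMP28 and 0.144 for ADAMTS15. It stayed under 0.05 for ADAMTS7 (0.0187) and MMP15 (0.0318). The summed TIMP difference of 65.7 FPKM ranged from 19.5 without shNC replicate 2 to 106.5 without shNC replicate 3, was 37.5 without shARHGEF2 replicate 2 and 102.3 without shARHGEF2 replicate 3, and that of the MMPs of 24.2 FPKM from 20.2 to 28.6. With a mean of at least 0.1 FPKM in place of 0.5, 35 members counted as expressed, and the filter at 1 FPKM in 3 libraries left ADAM12, MMP1 and MMP24 untested. The number of genes called over the whole table was 34, and 0 with the replicate block, 1 with no filter, 54 with the filter at 1 FPKM in 3 libraries, 19 with quantile normalization, and 7 each with median scaling and with no trend or robust variances. It was 13 without shNC replicate 1, 14 without shNC replicate 2, 102 without shNC replicate 3, 13, 15 and 6 without shARHGEF2 replicates 1, 2 and 3, a range of 6 to 102. The causes were not tested. Of the list genes, 0 were called, or 1 without shNC replicate 3 (0 to 1 over these fits), which was MICB (adjusted p = 0.0445). The check of deviations did not settle whether replicate numbers mark pairs. With the replicate block 0 members were called and 5 had an unadjusted p under 0.05. Depth limits the 28 members under 0.5 FPKM, which had no test in the main fit, and the spread of TIMP2 limits its comparison.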
